A study of Mus musculus with 13 samples.

Results

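The transcripts described here are those that changed under both of 2 small-molecule inhibitors, Ro5-3335 and SB431542, in cultured mouse astrocytes. A gene was taken when the authors' deposited tables listed it for each compound against vehicle, matched by its row number. There were 93 such genes, out of 1593 listed for any compound of the study. They made up 23.4% of the 397 genes listed for Ro5-3335 and 12.4% of the 748 listed for SB431542. The share of all tested genes that was listed was 2.93% for Ro5-3335 and 4.93% for SB431542 (5.64% for HLM006474, the remaining compound of the study). Nothing is read from the size of the overlap, since both compounds were measured against the same 4 vehicle samples.

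The cells were primary astrocytes, glia that support neurons. They came from the retina and optic nerve of C57BL/6 mice, wild type, at postnatal day 1 to 3, and grew in DMEM/F12 with serum. Cultures received vehicle (4 samples), Ro5-3335 (3 samples) or SB431542 (3 samples) for 24 h. HLM006474 (3 samples), an inhibitor of E2F transcription factors, is used only for side values. Doses, the solvent, the number of animals behind a culture and whether samples were separate platings are not stated in the labels, so the errors may measure technical spread only. Levels in single samples were not analysed here and library depth is unknown. Each value below is the authors' fitted log2 fold change ± its standard error.

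Transforming growth factor beta (TGF-beta) and activin bind paired receptors whose type I member is a kinase. That kinase phosphorylates SMAD proteins, which then enter the nucleus and switch on genes of the extracellular matrix and of contractile cells. SB431542 blocks the kinase. RUNX1 is a DNA-binding transcription factor that works with its partner CBFB, RUNX proteins can act together with SMADs, and Ro5-3335 is described as an inhibitor of the RUNX1 and CBFB pair. Whether either compound acted through these proteins was not tested. No RUNX gene, no Cbfb and no TGF-beta or activin receptor gene of the list for the target families was among the shared genes. Shared genes were 93 of the 13561 tested for Ro5-3335, so nothing is read from this absence.

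The compounds differed at single genes of several kinds. Clec4n and Ccl12, both genes of immune cells, were lower under Ro5-3335 and higher under SB431542. Angptl4 and Scara5 were higher under Ro5-3335 and lower under SB431542. Acta2, Tagln, Actg2 and Nexn, genes of the contractile apparatus, were lower under both, and further down under Ro5-3335. Arrdc3, an arrestin-like gene, was higher under both, and further up under Ro5-3335. Chst1, Stra6 and Lrrc15 were lower under both, and further down under SB431542. Immediate early transcription factor genes, such as Fosb and Nr4a1, were higher under both. The shared genes are grouped by role, and these roles were assigned after the values were seen, so a count within a role is no test of that role.

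By direction, 65 of the 93 genes were lower under both compounds, 24 were higher under both and 4 went opposite ways. Of all genes tested, 2.32% were listed as lower and 0.605% as higher under Ro5-3335, and 2.64% and 2.29% under SB431542. Nothing is read from these counts either. The members were chosen for passing the authors' limits in both comparisons, an adjusted p under 0.05 and a change of at least 0.58 on the log2 scale. Their fold changes are therefore a description. A vehicle group that stood high or low for a gene would shift both fold changes the same way, and such a shift and a shared response cannot be told apart here. The gap between the compounds does not have that weakness, because the vehicle level cancels when 1 fold change is subtracted from the other. The difference is given as Ro5-3335 minus SB431542 with a 95% interval built from both standard errors. That interval is wide, since it still counts the vehicle error. Intervals describe each gene, and carry no p-value because the genes were selected on the same fold changes.

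The interval of the difference excluded 0 for 20 of the 93 genes, namely the 4 with opposite directions and 16 of the 89 with a common direction. For those 4 this was fixed in advance, since changes of opposite sign that both pass the p limit always give an interval without 0. Of those 16, the change was larger under SB431542 in 11 and larger under Ro5-3335 in 5. At a stricter level, 0.05 divided by the 15169 genes tested for SB431542, the interval excluded 0 for 9 genes. These were Clec4n, Ccl12, Angptl4, Scara5, Chst1, Cd300ld3, Acta2, Tagln and Arrdc3. For the other 73 genes no difference was detectable at this precision, which does not show that the compounds acted alike. The reach of an interval to each side had a median of 0.53 and ran from 0.18 to 2.75 on the log2 scale, and 54 of the 73 intervals allowed a difference of 0.5 or more. The median absolute difference over all 93 genes was 0.17.

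**Figure D1:**
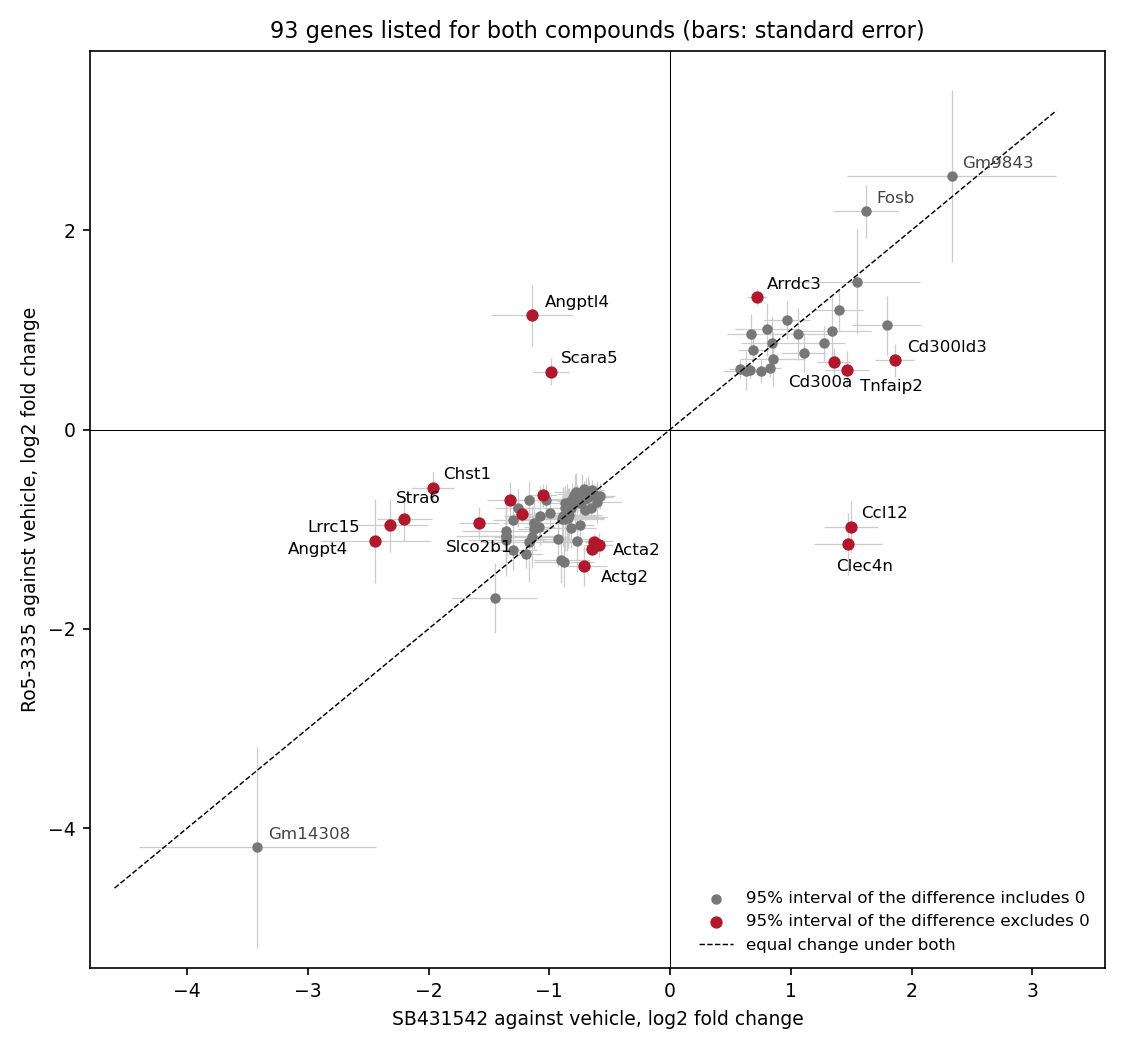
Log2 fold change against vehicle under SB431542 (x axis) and under Ro5-3335 (y axis) for the 93 genes listed for both, with bars for the authors' standard errors and a dashed line for equal change. Red points mark the 20 genes whose 95% interval of the difference excludes 0, and the 4 genes off the diagonal quadrants are Angptl4, Scara5, Ccl12 and Clec4n.

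A set of 4 genes moved in opposite directions. Clec4n, which encodes dectin-2, a C-type lectin receptor of myeloid cells, lies at chr6:123229843-123247024 of GRCm38. It stood at -1.15 ± 0.31 under Ro5-3335 and at 1.48 ± 0.28 under SB431542 in the authors' deposited tables. That is 45.1% of the vehicle level under the first and 278% under the second. Its transcript was 6.16-fold higher under SB431542 than under Ro5-3335, a log2 difference of -2.62 (95% interval -3.45 to -1.80). Ccl12, a chemokine that attracts monocytes (chr11:82101845-82103399), had 50.9% of the vehicle level under Ro5-3335 and 282% under SB431542 by the authors' deposited tables, with log2 standard errors of 0.26 and 0.22. Its difference was -2.47 (95% interval -3.14 to -1.80), or 5.54-fold. HLM006474 separated this pair of genes, with Clec4n at 0.79 ± 0.29 and Ccl12 at -2.21 ± 0.31 in the authors' deposited table.

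Angptl4 encodes a secreted inhibitor of lipoprotein lipase and lies at chr17:33774900-33781575. It stood at 1.15 ± 0.31 under Ro5-3335 and -1.14 ± 0.34 under SB431542 in the authors' deposited tables. The difference was 2.29 (95% interval 1.39 to 3.19), so its level was 4.90-fold higher under Ro5-3335. Scara5 (chr14:65666403-65764826) encodes a scavenger receptor that takes up ferritin. It stood at 0.58 ± 0.13 under Ro5-3335, just inside the fold limit, and at -0.99 ± 0.15 under SB431542 in the authors' deposited tables. The difference was 1.57 (95% interval 1.18 to 1.96), or 2.97-fold. The mean counts over all libraries were modest for all 4 genes, between 51.5 for Angptl4 and 160.03 for Scara5.

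**Figure D2:**
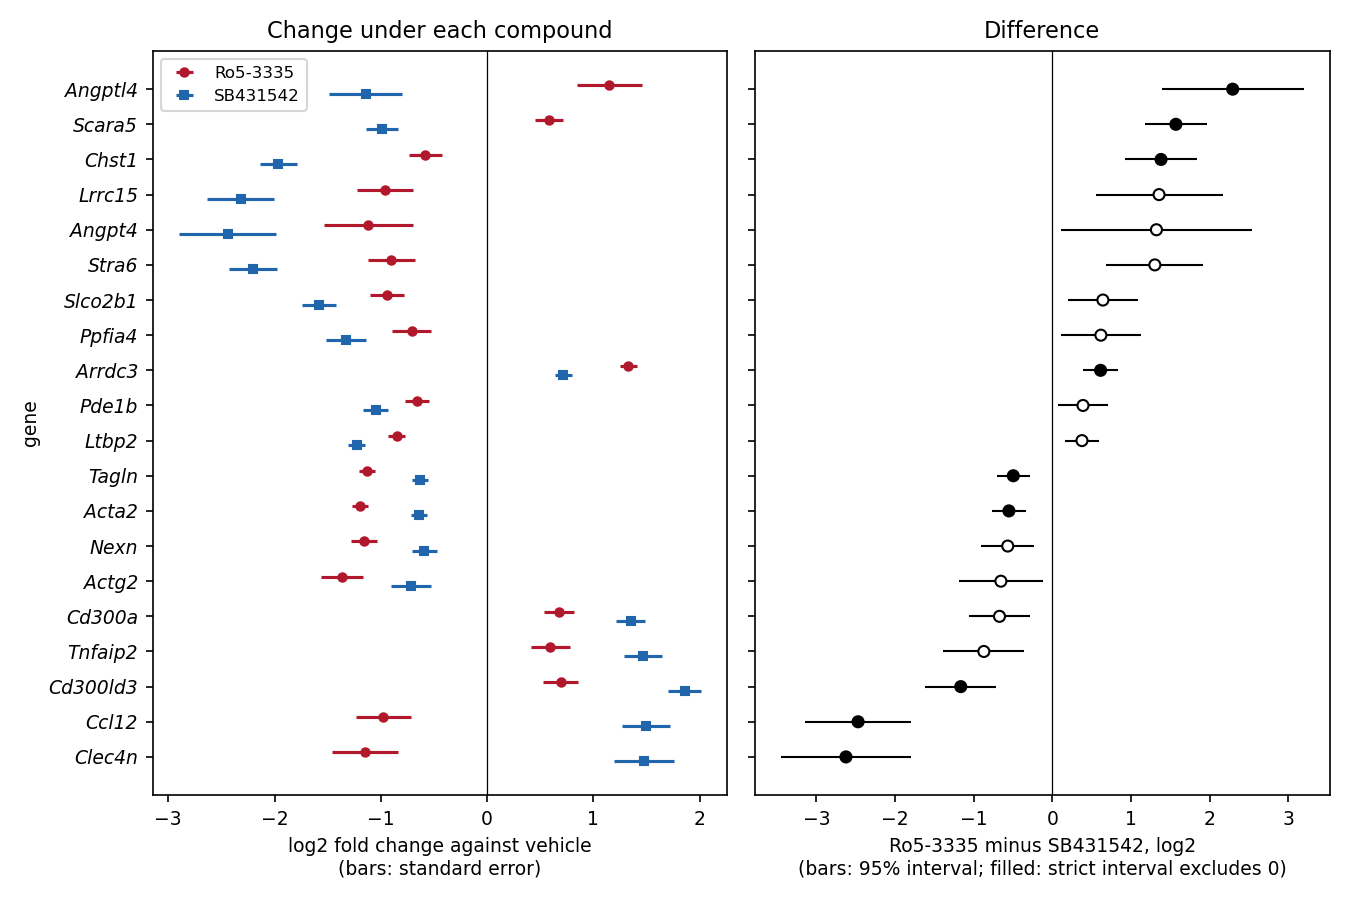
The 20 genes whose 95% interval of the difference excludes 0, with the log2 fold change under each compound and its standard error (left) and the Ro5-3335 minus SB431542 difference with its 95% interval (right). Filled points mark the 9 genes that also pass the stricter interval, from Clec4n at -2.62 to Angptl4 at 2.29.

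Of 6 shared genes put in a contractile and cytoskeletal role, all were lower under both compounds, and 4 were detectably further down under Ro5-3335. Acta2, smooth muscle alpha actin (chr19:34240336-34255585), was the most abundant of the 93 genes, with a mean count of 37998. It stood at -1.19 ± 0.08 under Ro5-3335 and -0.64 ± 0.08 under SB431542 in the authors' deposited tables, which is 43.7% and 64.1% of vehicle. The difference was -0.55 (95% interval -0.77 to -0.34). Tagln, the actin-binding protein transgelin (chr9:45929628-45936058), stood at -1.13 ± 0.07 and -0.63 ± 0.07 in that order in the authors' deposited tables, a difference of -0.50 (95% interval -0.70 to -0.29). Nexn, which encodes the filament-binding protein nexilin, stood at -1.16 ± 0.12 under Ro5-3335 and -0.59 ± 0.12 under SB431542 in the authors' deposited tables. Its difference was -0.57 (95% interval -0.90 to -0.23). Actg2, the enteric smooth muscle actin, differed by -0.65 (95% interval -1.19 to -0.12). Those were 4 of the 6 shared genes of the contractile and cytoskeletal group.

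The remaining members of that group showed no detectable gap. Tns1, which encodes tensin, a link between actin and integrins, stood at -0.67 ± 0.09 and -0.61 ± 0.09 under Ro5-3335 and SB431542 in the authors' deposited tables (95% interval of the difference -0.33 to 0.20). Pakap, a gene that overlaps its neighbours Palm2 and Akap2, stood at -1.69 ± 0.35 and -1.45 ± 0.35 in the authors' deposited tables. Over the 6 genes the median change was -1.18 under Ro5-3335 and -0.64 under SB431542, beside -0.77 and -0.88 over all lower genes of the respective table. A contractile list of 34 genes held 13 that were lower under Ro5-3335, and 3 lower and 1 higher under SB431542. Acta2, Tagln and Actg2 were its shared members, and the higher gene was Filip1l, at 0.69 ± 0.19 in the authors' deposited table. Of the 13, 10 were outside the SB431542 table, beside 304 of all 397 genes listed for Ro5-3335. Nothing is read from that count. Actin genes are close in sequence, and how reads shared between them were counted is not given in the sources used here.

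All 7 shared genes put in a calcium and ion handling role were lower under both. On a list of 28 calcium and channel genes, 5 were lower under Ro5-3335, and 2 were lower and 1 higher under SB431542. Casq1 and Cacna1c were shared, and the higher gene was Trpv2, a cation channel, at 0.69 ± 0.13 in the authors' deposited table. Casq1, a calcium store protein, stood at -1.25 ± 0.14 under Ro5-3335 and -1.20 ± 0.14 under SB431542 in the authors' deposited tables (95% interval of the difference -0.45 to 0.34). Cacna1c, the pore subunit of an L-type calcium channel, stood at -0.79 ± 0.19 and -1.26 ± 0.19 in the authors' deposited tables (-0.05 to 0.99). Pde1b, a calmodulin-dependent phosphodiesterase, fell further under SB431542, with -1.05 ± 0.12 against -0.66 ± 0.11 in the authors' deposited tables and a difference of 0.39 (95% interval 0.07 to 0.71). Dysf, which encodes the membrane repair protein dysferlin, had nearly equal values, -0.70 ± 0.09 under each in the authors' deposited tables, with an interval of -0.24 to 0.25. Pkd1, polycystin-1, stood at -0.90 ± 0.23 under each in the authors' deposited tables. That error of 0.23 came with a mean count of 3076, while Dysf had 0.09 at 2703. Camk2b, a calcium-dependent kinase subunit, differed by -0.45 (95% interval -1.14 to 0.24). Of 30 astrocyte identity genes, 3 were lower under Ro5-3335 and 2 under SB431542, with 1 in common.

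Another 12 shared genes were put in a matrix role, and all were lower under both, with medians of -0.80 under Ro5-3335 and -0.82 under SB431542. Of 54 matrix protein genes, 3 were lower under Ro5-3335 and 25 under SB431542, with Tnc and Fbn2 in common. Of 40 matrix processing genes, 2 and 10 were lower, with none in common. Most listed genes of any kind were not shared, 304 of 397 for Ro5-3335 and 655 of 748 for SB431542. Nothing is therefore read from how few matrix genes were shared. Tnc encodes tenascin C, an adhesion-modulating glycoprotein, and had a mean count of 11137. It stood at -0.79 ± 0.07 under Ro5-3335 and -0.65 ± 0.06 under SB431542 in the authors' deposited tables (95% interval of the difference -0.32 to 0.04). Lama5, a laminin chain of basement membranes, stood at -0.96 ± 0.11 and -0.75 ± 0.11 in the authors' deposited tables (-0.53 to 0.11). Spp1, the secreted glycoprotein osteopontin, stood at -0.74 ± 0.07 and -0.84 ± 0.07 in the authors' deposited tables (-0.09 to 0.30). Fbn2, a fibrillin of elastic microfibrils, stood at -0.78 ± 0.18 and -0.82 ± 0.18 in the authors' deposited tables. The metalloprotease genes Adam12 and Adamts7 differed by -0.10 and 0.11, and Mgp, an inhibitor of calcification, by 0.01. Megf6 differed by 0.01 (95% interval -0.37 to 0.39), Zfp469, a zinc finger gene tied to corneal collagen, by 0.29 (-0.33 to 0.92), and Tecta, a tectorial membrane gene with a mean count of 29.6, by 0.34 (-0.67 to 1.34).

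A pair of matrix genes did differ. Lrrc15, a membrane protein gene known to be induced by TGF-beta, stood at -0.96 ± 0.27 under Ro5-3335 and -2.32 ± 0.31 under SB431542 in the authors' deposited tables. The difference was 1.36 (95% interval 0.55 to 2.16), at a low mean count of 39.1. Ltbp2, a microfibril gene of the latent TGF-beta binding protein family, stood at -0.85 ± 0.08 and -1.22 ± 0.08 in the authors' deposited tables. The difference was 0.38 (95% interval 0.16 to 0.60). These were the shared members of a list of 42 TGF-beta pathway genes, of which 3 were lower under Ro5-3335 and 11 under SB431542. Markers of other cell types moved beside these genes under SB431542. Of 15 fibroblast markers 3 were lower there, Col1a1 at -1.08 ± 0.05, Col1a2 at -0.90 ± 0.06 and Lama1 at -0.85 ± 0.26 in the authors' deposited table, all 3 also on the matrix protein list. Of 11 pericyte and smooth muscle markers, 3 were lower there and 1 higher, namely Cspg4 at -1.04 ± 0.14, Mcam at -0.93 ± 0.09, Notch3 at -0.63 ± 0.07 and Anpep at 2.04 ± 0.55 in the authors' deposited table. None of either marker list was listed for Ro5-3335, beside 2.93% of all genes tested. The part of these markers in the matrix and contractile results was not tested. The second list does not hold Acta2, Tagln, Cnn1 or Myl9, contractile genes that were lower under Ro5-3335. By the bound set out further on for genes in only 1 table, the gap passed for Col1a1, Col1a2, Cspg4 and Mcam. It did not pass for Lama1, Notch3 or Anpep.

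A further 4 shared genes encode enzymes that build sulfated sugar chains, and each was lower under both. Chst1, a sulfotransferase of keratan sulfate (chr2:92599632-92615252), stood at -0.58 ± 0.16 under Ro5-3335, just inside the fold limit, and at -1.96 ± 0.18 under SB431542 in the authors' deposited tables. The difference was 1.38 (95% interval 0.92 to 1.84), so the transcript was 2.60-fold higher under Ro5-3335 than under SB431542. The chondroitin sulfate genes Chst3 and Chsy3 showed no detectable gap, with differences of 0.06 (95% interval -0.40 to 0.51) and 0.07 (-0.80 to 0.93). Chsy3 rested on a mean count of 29.3. B3gnt7, which extends keratan sulfate chains, differed by 0.09 (-0.61 to 0.78).

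**Figure D3:**
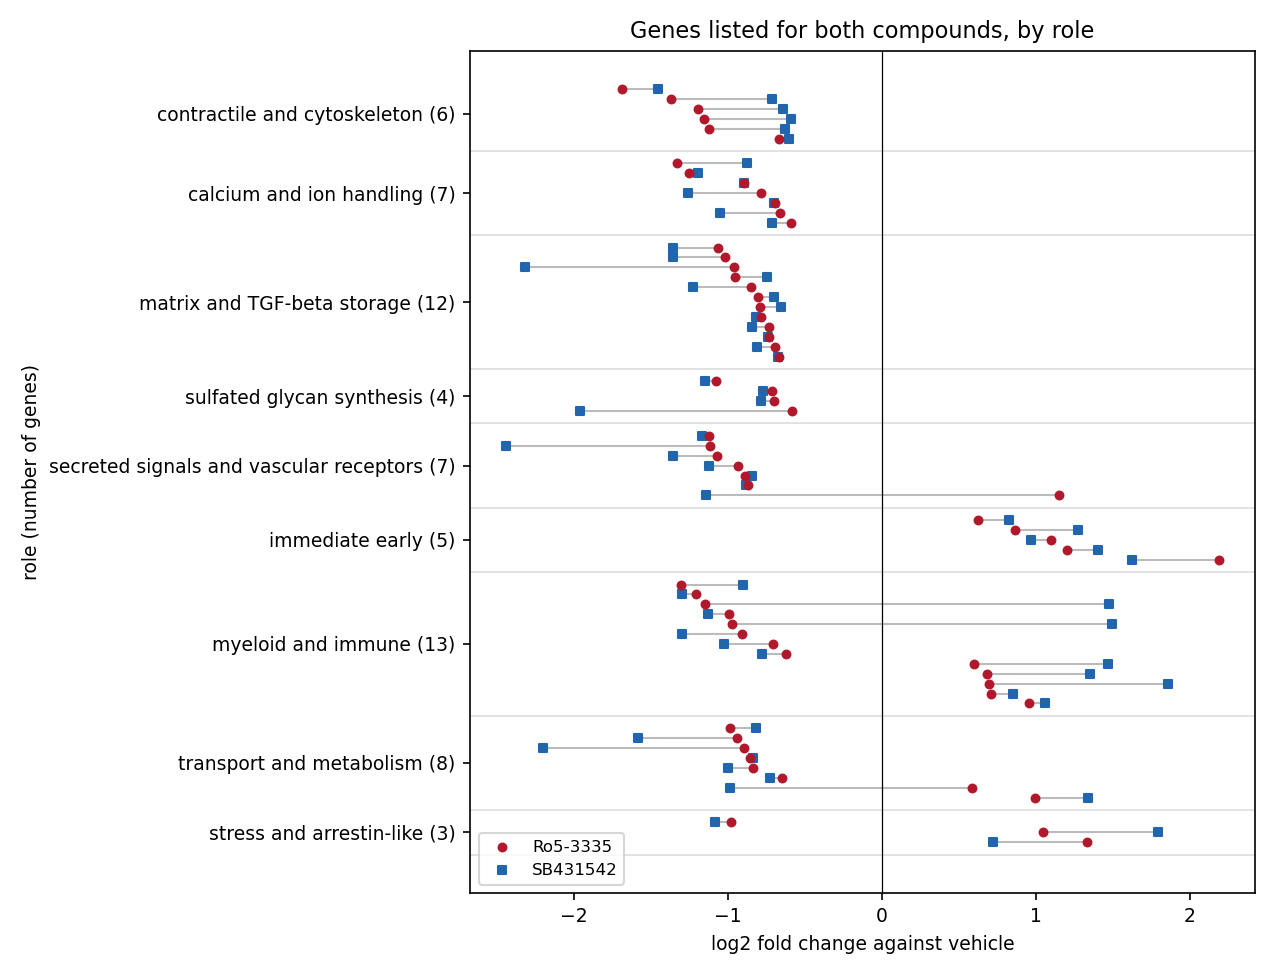
Log2 fold change against vehicle (x axis) of 65 of the 93 genes, grouped by role on the y axis, with a red circle for Ro5-3335 and a blue square for SB431542 joined by a line for each gene. The contractile group sits further left for Ro5-3335 (median -1.18 against -0.64), and the myeloid and immune group holds genes on both sides of 0.

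Start regions are shown for 3 of the 9 genes that passed the stricter interval. These were the genes with an entry in RefSeq's table whose bases before a start overlap no exon of GENCODE M21. Ccl12 had opposite directions, Arrdc3 changed more under Ro5-3335 and Chst1 changed more under SB431542. Each is the 250 bases before a start in RefSeq's table for GRCm38.p6, 5′ to 3′ on the gene's strand, and overlaps no exon of GENCODE M21. Capitals mark matches to the motifs searched.
Ccl12 (chr11:82101595-82101844, plus strand): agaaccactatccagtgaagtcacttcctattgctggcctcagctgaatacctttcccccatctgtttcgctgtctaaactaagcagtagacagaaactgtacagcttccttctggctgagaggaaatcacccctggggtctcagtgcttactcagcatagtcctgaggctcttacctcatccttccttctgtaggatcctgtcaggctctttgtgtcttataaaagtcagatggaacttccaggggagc
Arrdc3 (chr13:80883134-80883383, plus strand): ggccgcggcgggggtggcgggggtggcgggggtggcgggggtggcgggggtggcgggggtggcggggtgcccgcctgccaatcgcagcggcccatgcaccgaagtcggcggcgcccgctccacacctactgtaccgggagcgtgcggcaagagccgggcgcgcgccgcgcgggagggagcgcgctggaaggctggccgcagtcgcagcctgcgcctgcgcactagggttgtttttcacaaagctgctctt
Chst1 (chr2:92600867-92601116, plus strand): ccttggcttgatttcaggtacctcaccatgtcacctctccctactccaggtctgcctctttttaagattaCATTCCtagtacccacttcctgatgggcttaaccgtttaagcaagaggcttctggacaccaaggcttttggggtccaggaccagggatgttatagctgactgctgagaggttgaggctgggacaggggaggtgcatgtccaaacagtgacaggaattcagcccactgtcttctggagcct

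The capitals in Chst1 are a match to the TEAD motif on the opposite strand, 180 bases before that start, which lies inside the first intron of its GENCODE transcript. Ccl12 and Arrdc3 have no match in these 250 bases. The motifs searched on both strands were TGTGGT for RUNX, CAGACA for SMAD, TGANTCA for AP-1, GGAATG for TEAD, TTCCCGC or TTGGCGC for E2F, and the CArG box of serum response factor. Of the 93 genes, 68 had an entry in RefSeq's table, with windows of 300 bases that also hold 50 bases after the start. The RUNX motif was in a window of 13 of the 68 (19.1%), beside 18.9% of all 27025 genes with an entry. The SMAD motif was in 17 of the 68, beside 23.6% of all genes. Arrdc3 was among the 17, with its match outside the 250 bases shown. Shares for the others were 7.35% beside 8.97% for AP-1, 13.2% beside 16.6% for TEAD, 13.2% beside 7.79% for E2F and 2.94% beside 1.81% for the CArG box. These are letter matches in short windows, and none shows binding.

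Among secreted signals and vascular receptors, 6 of 7 shared genes were lower under both. Inhba, which encodes the subunit of activin A, stood at -0.94 ± 0.26 under Ro5-3335 and -1.12 ± 0.26 under SB431542 in the authors' deposited tables (95% interval of the difference -0.53 to 0.90). It was the shared gene of a list of 49 activin, BMP and growth factor genes. Angpt4, a ligand of the vascular receptor Tie2, stood at -1.12 ± 0.42 and -2.44 ± 0.46 in the authors' deposited tables, a difference of 1.32 (95% interval 0.11 to 2.54) at a mean count of 32.04. Flt1, a receptor for vascular endothelial growth factor, stood at -1.12 ± 0.41 and -1.17 ± 0.41 in the authors' deposited tables, and Ptprb, a phosphatase of endothelial cells, at -1.07 ± 0.40 and -1.36 ± 0.41. Ptprb had the lowest mean count of the 93 genes, 21.6, and a 95% interval of the difference of -0.83 to 1.41. Flt1 was the gene listed under either compound among 12 endothelial markers. Wnt2 and the oxytocin receptor gene Oxtr, with mean counts of 36.8 and 34.9, differed by 0.01 and -0.04.

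The 5 shared immediate early genes, a class switched on within minutes of a stimulus, were higher under both compounds. Fosb, a subunit of the AP-1 factor, stood at 2.19 ± 0.27 under Ro5-3335 and 1.62 ± 0.27 under SB431542 in the authors' deposited tables (95% interval of the difference -0.18 to 1.31). Nr4a1, an orphan nuclear receptor gene, stood at 1.20 ± 0.20 and 1.40 ± 0.20 in the authors' deposited tables (-0.75 to 0.35). The zinc finger factor gene Egr1 stood at 0.62 ± 0.10 and 0.82 ± 0.10 in the authors' deposited tables (-0.47 to 0.06), with a mean count of 1191. Egr2 and Egr3 differed by 0.13 (-0.40 to 0.66) and -0.41 (-0.89 to 0.08). None of the 5 had an interval that excluded 0. With the shared vehicle part taken out of the error, those of Fosb, Egr1 and Egr3 did exclude 0. Under HLM006474, Fosb, Nr4a1, Egr1, Egr2 and Egr3 had log2 changes of 3.22, 1.78, 1.41, 2.01 and 1.68 in the authors' deposited table. On a list of 28 immediate early genes, 7 were higher under Ro5-3335 and 9 under SB431542, and none was lower.

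Of 13 shared genes of myeloid cells and immune signalling, 6 were lower under both, 5 were higher under both, and Clec4n and Ccl12 went opposite ways. Cd300ld3, a receptor gene of the Cd300 family (chr11:115042104-115048419), stood at 0.69 ± 0.17 under Ro5-3335 and 1.86 ± 0.16 under SB431542 in the authors' deposited tables. The difference was -1.16 (95% interval -1.61 to -0.72). Its relative Cd300a, an inhibitory receptor, differed by -0.67 (95% interval -1.06 to -0.29) and Tnfaip2, a gene induced by tumour necrosis factor, by -0.87 (-1.38 to -0.36). All 3 were higher under SB431542 than under Ro5-3335. Trim14, an antiviral signalling gene that was higher under both, differed by -0.10 (95% interval -0.82 to 0.61). Cd300 genes and chemokine genes lie in clusters of similar copies, so part of their counts may be shared with relatives.

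The lower myeloid genes had no detectable gap, except for Slamf9 once the shared vehicle part was taken out of the error. Gpr84, a fatty acid receptor of activated myeloid cells, stood at -1.31 ± 0.23 and -0.90 ± 0.23 under Ro5-3335 and SB431542 in the authors' deposited tables. Ch25h, which makes an oxysterol, differed by 0.09 (95% interval -0.46 to 0.64), and Fgl2, a fibrinogen-like gene, by 0.13 (-0.22 to 0.48). Slamf9 differed by 0.39 (95% interval -0.07 to 0.85) and Gpr34, a microglial lipid receptor, by 0.32 (-0.10 to 0.74). Gpr34 was the shared gene of 22 microglia and macrophage markers. That list held 1 gene listed under Ro5-3335, which was lower, and 11 under SB431542, of which 8 were lower and 3 higher. Fold changes of the listed markers were used here, and their levels in single samples were not analysed. Their part in the differences of the immune genes was not tested. In such bulk RNA, fewer cells of a type and less RNA per cell cannot be told apart.

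Transport and metabolism genes included further contrasts. Stra6, the receptor through which cells take up retinol, stood at -0.90 ± 0.22 under Ro5-3335 and -2.20 ± 0.23 under SB431542 in the authors' deposited tables. Its level was 2.47-fold higher under Ro5-3335 than under SB431542, with a 95% interval of the log2 difference of 0.68 to 1.92. Slco2b1, an organic anion transporter, differed by 0.64 (95% interval 0.20 to 1.09) and was lower under both. Pycr1, an enzyme of proline synthesis, differed by -0.02 (-0.78 to 0.74), and Slc13a3, a dicarboxylate transporter, by -0.17 (-0.73 to 0.40). Fn3k, a kinase that removes sugars from proteins, was higher under both and differed by -0.35 (-1.26 to 0.56). Arrdc3, an arrestin-like gene that regulates adrenergic receptors (chr13:80883384-80896042), went up further under Ro5-3335, at 1.33 ± 0.08 against 0.72 ± 0.08 in the authors' deposited tables. Its difference was 0.61 (95% interval 0.39 to 0.84). Trib3, a stress-induced pseudokinase, stood at 1.05 ± 0.29 and 1.79 ± 0.29 (-1.55 to 0.06), and the small heat shock protein gene Hspb1 at -0.98 ± 0.13 and -1.08 ± 0.13 (-0.25 to 0.46), in the authors' deposited tables.

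A remaining 28 genes were put in no role, 17 lower and 11 higher under both. Of these, 1 had a detectable gap, Ppfia4, a liprin of presynaptic scaffolds, at -0.71 ± 0.18 under Ro5-3335 and -1.33 ± 0.19 under SB431542 in the authors' deposited tables (difference 0.62, 95% interval 0.11 to 1.13). The lowest of all was Gm14308, of a family of similar zinc finger genes, at -4.19 ± 1.01 and -3.42 ± 0.98 in the authors' deposited tables, where the errors were too large to compare the compounds (95% interval of the difference -3.52 to 1.97). The pseudogenes Gm9843 and Gm5831, with mean counts of 23.1 and 24.0, stood at 2.54 ± 0.86 and 2.33 ± 0.86, and at 1.48 ± 0.53 and 1.55 ± 0.52, in the authors' deposited tables. Npas1, a neuronal transcription factor gene, stood at -0.89 ± 0.32 and -0.87 ± 0.32 under Ro5-3335 and SB431542 in the authors' deposited tables, and at -0.89 ± 0.32 under HLM006474. Gm5831 likewise had 1.48 ± 0.52 under HLM006474 in the authors' deposited table. Tns1, Mgp and B3gnt7 were also near-equal under all 3 compounds, at -0.60 ± 0.09, -0.65 ± 0.20 and -0.69 ± 0.25 under HLM006474 in the authors' deposited table. All 3 compounds share the vehicle samples. Prmt8, an arginine methyltransferase gene, differed by 0.46 (95% interval -0.08 to 1.00), Map3k7cl by 0.25 (-0.62 to 1.12) and Ypel1 by 0.03 (-0.69 to 0.74). The differences of Rap1gap2, a regulator of the Rap1 switch protein, and of 1700007K13Rik were both 0.03. Nearest the fold limit were Scara5, Chst1 and Gm4724 (0.59) for Ro5-3335, and 1700007K13Rik (0.58), Etl4 (-0.58) and Nexn for SB431542, on the log2 scale of the authors' deposited tables. Nearest the p limit were Traf3ip3 for Ro5-3335 and Pabpc4l for SB431542, with adjusted p of 0.0446 and 0.0482 from the authors' DESeq2 test. Of the 93 genes, 16 had a mean count under 50.

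Genes in only 1 of the tables were 304 for Ro5-3335 and 655 for SB431542. Of the latter, 82 had a mean count below 21.6, the smallest in the Ro5-3335 table, and so could have been left out for their low counts. A gene outside a table either changed by less than 0.58 or missed the p limit, so its value there is bounded, not known. With that bound, and the error taken as equal under both compounds, the gap exceeded its 95% error for 22 of the 304 and 145 of the 655. Of the 10 contractile genes in the Ro5-3335 table only, 6 did not pass (Acta1, Cap2, Cnn1, Lmod1, Smtn and Tpm4). The 4 that passed were Tpm2 at -1.12 ± 0.08, Myl9 at -1.03 ± 0.07, Cnn2 at -0.79 ± 0.04 and Flna at -0.76 ± 0.05 in the authors' deposited table. All 22 replication and E2F genes listed for Ro5-3335 were outside the SB431542 table, but only Tk1, Rrm2 and Uhrf1 passed, since most changes lay close to the limit. All 10 listed mitosis genes failed it, so a difference between the compounds was not shown for mitosis. For SB431542 the passing genes included Pmepa1 and Skil, which are targets and feedback regulators of TGF-beta signalling, at -3.43 ± 0.11 and -1.66 ± 0.06 in the authors' deposited table. Among matrix protein genes in only 1 table, Col4a2, Col5a1, Col8a2, Emilin1, Fbln2, Lama1, Mfap2, Tnn and Vcan for SB431542 and Hspg2 for Ro5-3335 did not pass. The same held for Fkbp10, Has2, Tgm2 and Mmp3 among matrix processing genes. The other genes of these lists that were in only 1 table passed.

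Among 10 genes of the target families, none was listed for Ro5-3335, beside 2.93% of all genes tested. At that share none is the usual outcome for a list of 10. Tgfbr1, the type I TGF-beta receptor, was at -1.01 ± 0.07, Runx2 at -0.66 ± 0.19 and Runx3 at -0.72 ± 0.26 under SB431542 in the authors' deposited table, and the gap passed for Tgfbr1 only. Of 36 inflammatory mediators, 3 were lower under Ro5-3335 and 11 higher under SB431542, with Ccl12 in common. Over all genes tested, 2.32% were lower under Ro5-3335 and 2.29% higher under SB431542. The chemokine genes Ccl2, Ccl3 and Ccl4, outside the Ro5-3335 table, were at 2.28 ± 0.22, 1.78 ± 0.18 and 2.89 ± 0.23 under SB431542 in the authors' deposited table, and their gaps passed. The gap did not pass for Ccl5, Cxcl10, Il1rn and Tnf, listed for SB431542, or for Il33 and Tnfaip3, listed for Ro5-3335. The microglial receptor genes P2ry12 and Cx3cr1 were at -1.19 ± 0.17 and -2.21 ± 0.08, and the macrophage receptor gene Mrc1 at 2.64 ± 0.11, under SB431542 in the authors' deposited table. Of 25 interferon response genes, 6 were higher under SB431542, beside 2.29% of all genes tested. None was listed for Ro5-3335, beside 2.93% of all genes tested, so nothing is read from that absence. The gap passed for Gbp5 only, and not for Gbp2, Ifit1, Mx1, Psmb9 or Rsad2, so a difference was not shown for those genes.

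The other lists held few shared genes. Hspb1 and Trib3 were the shared genes of 24 stress genes, Hspb1 of 37 reactive astrocyte genes and Egr2 of 10 Schwann cell markers. No gene was shared among 39 adhesion receptors, 21 oxidative stress genes, 5 proliferation markers, 15 fibroblast, 11 pericyte, 12 neuron, 12 oligodendrocyte or 8 pigment cell markers. Shared genes were 93 of the 13561 tested for Ro5-3335, so none is the usual outcome for lists of these sizes. Nothing is read from these absences.

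**Figure D4:**
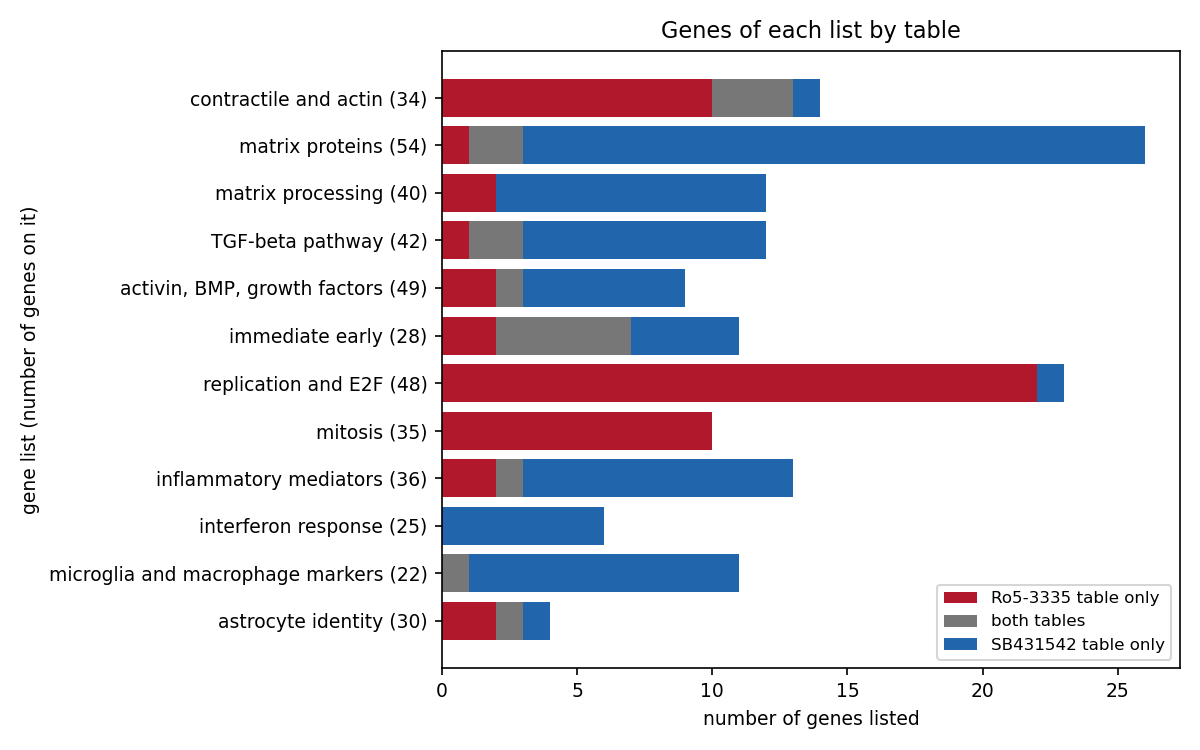
Number of genes (x axis) of 12 gene lists (y axis, with the size of each list) that stood in the Ro5-3335 table only, in both tables or in the SB431542 table only. Immediate early genes had 5 in both, while replication genes were 22 in the Ro5-3335 table only and matrix proteins 23 in the SB431542 table only. Over all listed genes, 304 were in the Ro5-3335 table only, 93 in both and 655 in the SB431542 table only.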

How the data were processed

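RNA was sequenced in 13 samples, and 3 tables of the authors' own comparisons were used, each of 1 compound against vehicle. CASAVA 1.8, STAR 2.7, DESeq2 1.30.1 and the build GRCm38 are named per the submitters' processing notes. A read counter, annotation or strand setting is not given in the sources used here. Each row of the authors' deposited tables holds, per the file headers, the mean normalised count (a signal over libraries), the log2 fold change with its standard error, the Wald score, the p-value and its adjusted value. Mean counts of shared genes are identical between tables. All listed genes have an adjusted p under 0.05 and a log2 change of at least 0.58 in size, so values just outside these limits were not analysed here.

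From these values the difference of the 2 fold changes was computed, with the root of the summed squared errors and a normal 95% interval, 1.96 errors to each side. The stricter interval used 4.65 errors. The code was tested on simulated data. The number of genes tested, 13561 for Ro5-3335 and 15169 for SB431542, was recovered from the ratio of p to adjusted p, which made 83.6% and 80.5% of the checked ranks whole within 0.02. Symbols matched for all 93 genes, and coordinates are RefSeq's for GRCm38.p6.

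The members, roles and 26 gene lists were chosen with earlier results of these data known, and the roles after the values were seen. The genes named by rule were those with opposite directions, the 10 lowest and 10 highest differences, the 10 largest common changes each way, the 5 smallest differences and up to 6 of each list. Members of the target families were named too. Genes named beyond that rule were chosen after their values were seen. Some genes that the rule names are not reported here. Computations used Python 3.11.15, pandas 2.3.3 and scipy 1.17.1.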

Additional observations from a re-analysis of the deposited data

How the results depend on the processing

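With an adjusted p under 0.01 in both tables, 73 of the 93 genes remained and 18 had a detectable gap. With a mean count of at least 100, 66 remained and 16 had a detectable gap. The medians stayed near the reported values under both settings, and matching on symbol changed nothing. Of the 4 genes with opposite directions, Ccl12 and Angptl4 fell under that mean count, which left 2. With a log2 change of at least 1 in both tables, fewer genes qualify by construction: 18 were shared, 3 had an interval of the difference that excluded 0 (Clec4n, Angpt4 and Angptl4), 2 had opposite directions, and the median changes were -1.07 under Ro5-3335 and -1.18 under SB431542. The stricter interval left 9 of the 20 differences. With the shared vehicle part taken out of the error, 28 intervals excluded 0, and the 8 added genes were Tnc, Fosb, Egr1, Egr3, Trib3, Cacna1c, Slamf9 and Prmt8. No paired analysis was possible because the files used hold fold changes and no values per sample. For the same reason no replicate could be left out, and 1 library that decided a value would not be seen here.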
